A study of Mus musculus with 12 samples.

Results

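The Mef2 transcription factors are the 4 mouse genes Mef2a (ENSMUSG00000030557.9), Mef2b (ENSMUSG00000079033.3), Mef2c (ENSMUSG00000005583.8) and Mef2d (ENSMUSG00000001419.10). They were picked by name from the 37287 gene IDs of the count tables, and all 4 were found. Poly(A) RNA of mouse embryonic fibroblasts labelled MyoD-/-; Myf5-/- was sequenced, and every library came from such cells, the controls included. Transduced cells were harvested after 24 h with lentivirus and 20 h in a differentiation medium. The cells without virus also had 20 h in this medium. The libraries carried lentiviral MyoD (2 libraries, at 1x and 2x virus), Myf5 (2, at 1x and 2x), no virus (1, labelled NV and called untransduced here) or GFP (5, namely 1x and an MOI of 15, 30, 60 and 120). A separate table held 1x Chimera (1 library) and 1x MyoD from a second batch of virus (1), which the labels say was balanced against the Chimera. The labels tell neither the make-up of the Chimera nor which MOI corresponds to 1x. No dose has a labelled repeat culture, so the libraries of a group differ in dose, and p-values measure a spread that holds dose as well.

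Mef2 proteins are MADS-box transcription factors that bind an A and T rich element in promoters and enhancers of muscle genes. In differentiating myoblasts they act together with the myogenic bHLH factors MyoD, Myf5 and myogenin, and their own genes are turned up as differentiation begins. Class IIa histone deacetylases hold Mef2 proteins in a repressed state, and calcium-dependent and p38 kinases relieve that state or act on Mef2 itself.

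The promoters of the 2 members that the results turn on are printed because Mef2a and Mef2d moved together with MyoD and because the Mef2a window holds a match to the Mef2 consensus at its own start. Both run from 250 bases before to 50 after the RefSeq start on GRCm38.p6, 5′ to 3′ on the gene's strand, with capitals for the Mef2 consensus. Mef2a lies at chr7:67372809-67373108 on the minus strand and Mef2d at chr3:88142122-88142421 on the plus strand.
Mef2a: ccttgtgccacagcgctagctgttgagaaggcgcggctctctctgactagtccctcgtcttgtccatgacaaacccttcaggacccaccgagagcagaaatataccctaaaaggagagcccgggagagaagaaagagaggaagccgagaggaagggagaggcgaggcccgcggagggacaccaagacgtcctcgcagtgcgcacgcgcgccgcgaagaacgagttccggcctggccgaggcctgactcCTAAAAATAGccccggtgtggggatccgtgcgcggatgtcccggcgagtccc
Mef2d: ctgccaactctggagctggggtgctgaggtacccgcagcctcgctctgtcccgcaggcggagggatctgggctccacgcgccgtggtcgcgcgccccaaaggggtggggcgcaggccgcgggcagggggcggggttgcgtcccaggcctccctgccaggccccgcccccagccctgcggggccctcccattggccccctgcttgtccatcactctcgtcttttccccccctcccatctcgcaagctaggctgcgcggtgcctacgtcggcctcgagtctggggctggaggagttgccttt

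The Mef2a window held 1 match to the Mef2 consensus, which began 2 bases before the start. The Mef2d window and the 3 Mef2c windows held none. Both strands were searched, and 3.19% of the 32851 RefSeq promoter windows held a match. Neither the Mef2a nor the Mef2d window held the E-box letters CANNTG, the core bound by MyoD and Myf5, which 72.3% of all windows held. Such a match is a description of letters, and its absence says only that these letters are not in this window. Of 20 muscle genes listed as Mef2 targets, 15 had a window and 3 of these held the consensus. Of 8 signal-response genes listed as targets, all 8 had a window and 2 held it. Their sites are printed with 10 bases on either side, since these 5 genes return below.
Pgam2 (chr11:5803857-5803886, minus strand): ttttgtgagaCTATTTTTAAgttcagctcc
Srpk3 (chrX:73774328-73774357, plus strand): agctgggaggCTATTTATAAaggcgagtga
Xirp2 (chr2:67445918-67445947, plus strand): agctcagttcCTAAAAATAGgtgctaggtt
Jun (chr4:95052236-95052265, minus strand): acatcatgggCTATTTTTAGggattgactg
Klf2 (chr8:72318934-72318963, plus strand): tataccgcggCTAAATTTAGgctgagcccg

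Total counts, in mega counts (M), were 80.6 and 76.8 in 1x and 2x MyoD, 68.3 and 68.5 in 1x and 2x Myf5, 72.7 in untransduced cells, 81.5 in 1x GFP and 17.9 to 22.4 in the 4 MOI libraries. In the second table they were 25.1 for Chimera and 23.7 for second-batch MyoD. Levels are in CPM, a library's counts scaled by its total in M. As a check on the labels, Myod1 stood at 309 and 617 CPM in 1x and 2x MyoD and at 5.21 to 5.99 CPM in the 8 other libraries of the first table, and Myf5 stood at 149.5 and 249 CPM in 1x and 2x Myf5 and at 11.9 to 24.4 CPM in the others. The 1x GFP library stood apart from the 4 MOI libraries. Between these 2 kinds of GFP library edgeR's quasi-likelihood test called 24.4% of 13825 genes at a Benjamini-Hochberg adjusted p under 0.05, so values against 1x GFP alone stand beside those against all 5. The summed CPM of 10 muscle markers was 913 and 2283 with MyoD, 157 and 320 with Myf5 and 3.14 to 4.65 with GFP. The summed CPM of 9 fibroblast markers was 10953 to 14907 with MyoD, 14085 to 16885 with Myf5 and 19479 to 20817 with GFP. All 9 fibroblast markers had counts in every library, as the cells' label says. In bulk RNA, more cells responding and more RNA per cell cannot be told apart.

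Mef2a, a Mef2 member expressed in many tissues that activates muscle genes, was higher with MyoD than with GFP, and with Myf5 its values lay between those groups. It was measured at 250.05 and 445 CPM in 1x and 2x MyoD, at 101 and 127 CPM in 1x and 2x Myf5, at 74.2 CPM in untransduced cells, and at 72.5 CPM in 1x GFP and 78.6, 77.8, 77.4 and 77.8 CPM at an MOI of 15, 30, 60 and 120. Neither MyoD nor Myf5 values overlapped those with GFP, but the share of all genes that separate in this way was not counted. Group means were 347.5 ± 138 CPM with MyoD, 114 ± 18.4 CPM with Myf5 and 76.8 ± 2.44 CPM with GFP (SD, n = 2, 2 and 5). The log2 fold change of MyoD over GFP was 2.24 ± 0.18 (SE), a 4.71-fold difference, with an adjusted p of 7.9e-05 by edgeR's quasi-likelihood test over 13825 genes. Over all 12 libraries the counting intervals of neighbours in the order of levels did not overlap from 2x MyoD down to 1x Myf5, and did overlap among the GFP and untransduced libraries below. Against 1x GFP alone the value was 2.27 ± 0.32 (adjusted p 0.0036, edgeR). For Myf5 over GFP it was 0.60 ± 0.18 and did not pass (adjusted p 0.0822, edgeR), although DESeq2 called it (adjusted p 0.0181), as did edgeR without either MyoD library or without 1x GFP. Against 1x GFP alone Myf5 gave 0.64 (adjusted p 0.302, edgeR).

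Mef2d, the member that recruits histone methyltransferase complexes to muscle genes, had the MyoD and then the Myf5 libraries on top as Mef2a did, over a smaller range. It stood at 153 and 201 CPM in 1x and 2x MyoD, at 104 and 111 CPM in 1x and 2x Myf5, at 87.1 CPM in untransduced cells, and at 91.3 CPM in 1x GFP and 83.6, 87.2, 91.0 and 91.2 CPM along the MOI series. Here too the MyoD and the Myf5 libraries lay above every GFP library, again without a count over all genes to set beside it. Means were 177 ± 34.0 CPM with MyoD, 108 ± 4.87 CPM with Myf5 and 88.8 ± 3.42 CPM with GFP (SD, n = 2, 2 and 5). In the order of levels, Chimera and 2x Myf5 had overlapping counting intervals, as did neighbours among the GFP and untransduced libraries. MyoD over GFP gave a log2 fold change of 1.05 ± 0.10, 2.06-fold, which passed at an adjusted p of 0.00018 by edgeR, and 0.96 ± 0.16 against 1x GFP alone (adjusted p 0.00497). Myf5 over GFP gave 0.31 ± 0.10 and did not pass (adjusted p 0.103, edgeR), nor did it with DESeq2 (adjusted p 0.0600), although edgeR called it without 1x MyoD (adjusted p 0.0284), without 2x MyoD (0.0279) or without 1x GFP (0.0460). Against 1x GFP alone it was 0.23 (adjusted p 0.479, edgeR).

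Mef2c, a regulator of skeletal and heart muscle genes, was scarce in all 12 libraries, and its direction with MyoD depended on which GFP library it was set against. It stood at 3.33 and 5.53 CPM in 1x and 2x MyoD, at 3.16 and 4.69 CPM in 1x and 2x Myf5, at 3.22 CPM in untransduced cells, at 1.89 CPM in 1x GFP, and at 4.001, 6.38, 5.50 and 6.53 CPM at an MOI of 15, 30, 60 and 120. The MyoD and Myf5 libraries thus lay inside the GFP range, above 1x GFP and partly below the MOI libraries. These values rest on 79 to 425 counts per library. MyoD over GFP gave a log2 fold change of -0.04 ± 0.43 (adjusted p 0.942, edgeR) against all 5 GFP libraries, but 1.24 ± 0.41 (adjusted p 0.0484) against 1x GFP alone, which is 1 library. The MOI libraries stood above 1x GFP by 1.51 ± 0.39 on the log2 scale (adjusted p 0.0263, edgeR). In this comparison of GFP libraries Mef2a (0.05) and Mef2d (-0.10) were not called. Myf5 over GFP gave -0.24 (adjusted p 0.736, edgeR) and 1.04 against 1x GFP alone (adjusted p 0.240).

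Mef2b was near its detection limit. It had 1 count in each MyoD library, 0 and 4 in 1x and 2x Myf5, 2 in untransduced cells, 3 in 1x GFP and 0 in each of the 4 MOI libraries, with 0 in Chimera and 1 in second-batch MyoD. With so few counts no difference between groups was detectable at this depth, and Mef2b did not pass the filter of 1 CPM in 2 libraries. At 0 counts, the exact 95% limit was 0.165 to 0.207 CPM in the MOI libraries and 0.054 CPM in 1x Myf5, for counting error only. In the RefSeq gene table Gm45929 overlaps it, and how reads of overlapping genes were counted is not given here. Borcs8, a gene of the same locus, stood at 21.9 to 24.7 CPM with MyoD and 21.1 to 26.4 CPM with GFP (log2 fold change 0.02, not called).

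Of the 3 members that passed the filter, 2 were called higher and none lower with MyoD, where 21.4% of the 13825 genes tested were called higher, 20.9% lower and 42.4% in either direction. None of the 3 was called with Myf5, where 6.1% of genes were called in either direction (3.81% higher, 2.29% lower), and none in untransduced cells against GFP, where 8.35% were (5.83% higher). Against 1x GFP alone all 3 were called higher with MyoD, where 15.1% of genes were called higher and 30.5% in either direction. None was called with Myf5 against 1x GFP alone, where 1.18% were in either direction, nor in untransduced cells, where 4.94% were (3.37% higher).

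**Figure D1:**
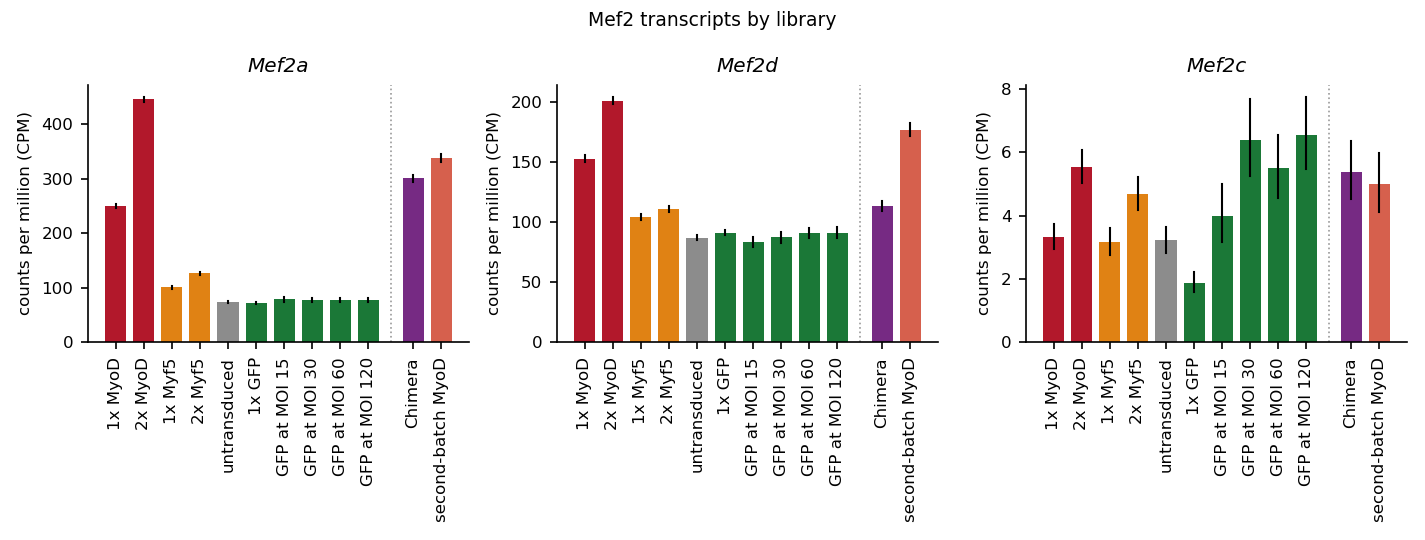
Levels in CPM of Mef2a, Mef2d and Mef2c (vertical axes, each from 0) in every library, with exact 95% counting intervals as black lines and a dotted line before the separately made second table. Mef2a and Mef2d are highest in 2x MyoD, at 445 and 201 CPM, while Mef2c is highest at an MOI of 120 with 6.53 CPM and lowest in 1x GFP with 1.89 CPM.

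Set directly against Myf5, MyoD was accompanied by more of both abundant members. Mef2a was higher in MyoD by 1.63 ± 0.23 on the log2 scale, 3.105-fold (adjusted p 0.0229, edgeR), and Mef2d by 0.74 ± 0.13, 1.67-fold (adjusted p 0.0243), where 4.21% of genes were called higher and 5.5% in either direction. At the same labelled dose the Mef2a ratio of MyoD to Myf5 was 2.48 (95% counting interval 2.41 to 2.55) at 1x and 3.50 (3.42 to 3.59) at 2x. For Mef2d it was 1.47 (1.42 to 1.51) at 1x and 1.81 (1.76 to 1.86) at 2x. The introduced transcripts were not level at the same label, with Myod1 at 309 and 617 CPM in 1x and 2x MyoD. Myf5 stood at 149.5 and 249 CPM in 1x and 2x Myf5. The part of this difference in the ratios was not tested. Mef2c did not differ beyond the spread (0.20 ± 0.51, adjusted p 0.840, edgeR). These calls rested on single libraries. Without 1x Myf5 the adjusted p was 0.198 for Mef2a and 0.199 for Mef2d, and without 2x Myf5 it was 0.067 for Mef2a and 0.102 for Mef2d. Without the GFP library at an MOI of 30 or of 60 it lay between 0.0529 and 0.0549 for both genes, and Mef2d was also lost without 2x MyoD (0.0855), while the log2 differences stayed between 1.14 and 2.01 for Mef2a and between 0.51 and 0.94 for Mef2d.

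More virus went with more Mef2a within each factor. The ratio of 2x to 1x was 1.78 (95% counting interval 1.75 to 1.81) with MyoD and 1.26 (1.22 to 1.30) with Myf5. For Mef2d it was 1.31 (1.28 to 1.35) with MyoD and 1.07 (1.03 to 1.10) with Myf5, and for Mef2c 1.66 (1.42 to 1.95) and 1.48 (1.24 to 1.77). The introduced Myod1 itself was 2.00 times as abundant in 2x as in 1x MyoD, and Myf5 1.67 times in 2x as in 1x Myf5. A common dose term over both factors gave log2 changes of 0.61 ± 0.11 for Mef2a, 0.27 ± 0.09 for Mef2d and 0.67 ± 0.48 for Mef2c. None passed in edgeR (adjusted p 0.123, 0.351 and 0.7098), where 0.0217% of genes did, while DESeq2 called Mef2a (adjusted p 0.00056). Along the GFP series a doubling of MOI went with log2 differences of -0.0038 for Mef2a, 0.05 for Mef2d and 0.18 for Mef2c, and none was called (adjusted p 0.945, 0.190 and 0.192, edgeR), where 7.49% of 13383 genes were (4.06% higher). The Mef2c value rested on the library at an MOI of 15, without which it was 0.023. Untransduced cells differed from GFP by -0.01 for Mef2a, 0.01 for Mef2d and -0.52 for Mef2c, none called (adjusted p 0.991, 0.955 and 0.573, edgeR).

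**Figure D2:**
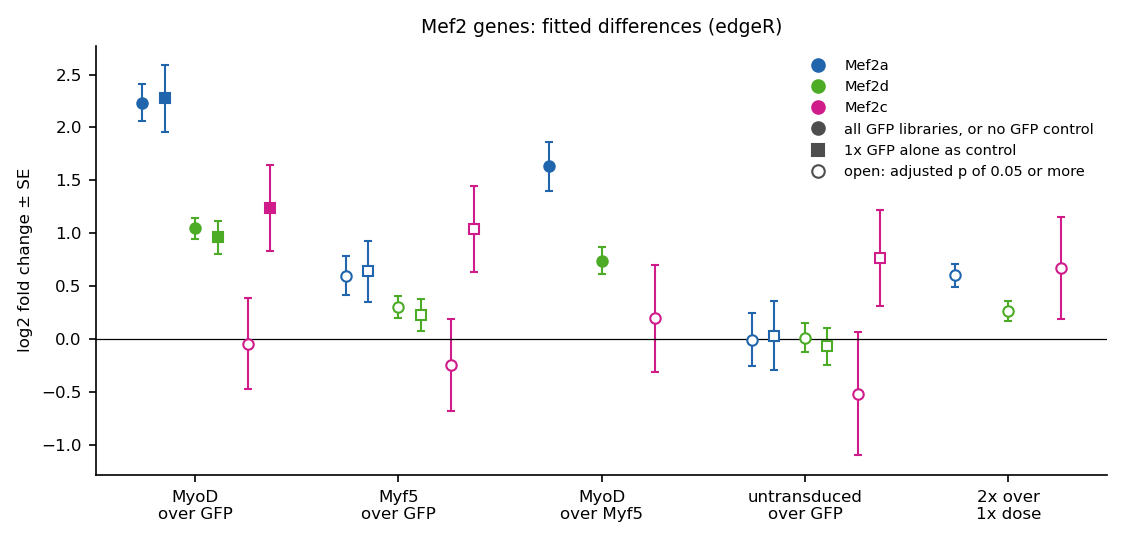
Fitted log2 fold changes with standard errors (vertical axis) for the 3 Mef2 genes that passed the filter, by comparison (horizontal axis), with circles for all GFP libraries or no GFP control, squares for 1x GFP alone, and open symbols where the adjusted p was 0.05 or more. Mef2a and Mef2d keep their place with either control, at 2.24 and 2.27 and at 1.05 and 0.96 for MyoD over GFP, whereas Mef2c moves to 1.24 with 1x GFP alone.

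Mef2a took the larger part of the family's counts with MyoD, and Mef2d with GFP. Mef2a made up 61.6% and 68.3% of all Mef2 counts in 1x and 2x MyoD, 48.5% and 52.3% in 1x and 2x Myf5, 45.1% in untransduced cells, 43.8% in 1x GFP and 44.3% to 47.3% along the MOI series. Both MyoD libraries and both Myf5 libraries lay above every GFP library. Mef2d was the larger part in untransduced cells and in each of the 5 GFP libraries, with 50.3% to 55.1% of Mef2 counts with GFP. Lengths matter when genes are compared, and per kilobase of median GENCODE vM21 transcript the mean level was 93.6 CPM for Mef2a, 67.0 for Mef2d and 1.26 for Mef2c with MyoD, against 20.7, 33.7 and 1.38 CPM with GFP. With the union of exons as length, Mef2a and Mef2d were at 61.0 and 30.3 CPM per kilobase with MyoD and at 13.5 and 15.2 with GFP, in the same order. With Myf5 the order turned on the length, with Mef2a at 30.7 and Mef2d at 40.8 CPM per kilobase of median transcript but at 20.0 and 18.4 per kilobase of union. Mef2c made up 0.819% and 0.849% of Mef2 counts with MyoD, 1.52% and 1.93% with Myf5, 1.14% in 1x GFP and 2.41% to 3.72% along the MOI series. The log2 ratio of Mef2c to the sum of Mef2a and Mef2d averaged -6.37 ± 0.62 in the 4 MyoD and Myf5 libraries and -5.22 ± 0.73 in the 5 GFP libraries (SD, n = 4 and 5). An exact two-sided permutation test of this difference of -1.15 gave p = 0.0635. With the untransduced library added to GFP it gave -1.08 and p = 0.0476, and without 1x GFP it gave -1.45 and p = 0.0286 (both exact permutation tests). Without any other single library the exact permutation p lay between 0.0714 and 0.143, so the difference did not pass in those 8 tests. The denominator is Mef2a and Mef2d, which were higher with MyoD, so the ratio is no separate result on Mef2c. The log2 ratios in 1x and 2x Myf5, -6.02 and -5.67, lay above the -6.44 of 1x GFP.

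**Figure D3:**
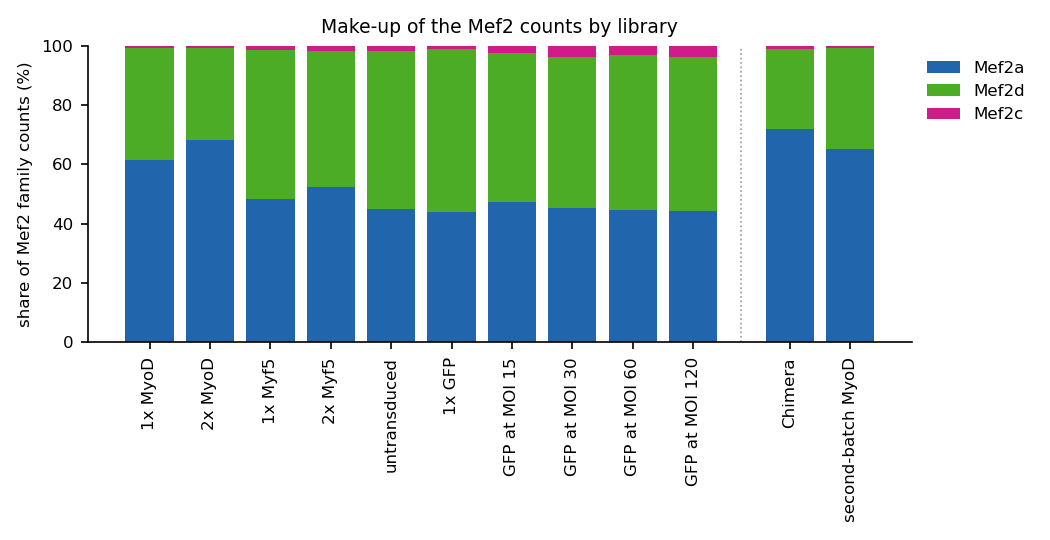
Share of the Mef2 family's counts taken by Mef2a, Mef2d and Mef2c (stacked, in percent) in each library, with a dotted line before the second table. Mef2a takes 61.6% and 68.3% in the MyoD libraries and 71.7% in Chimera, against 43.8% to 47.3% with GFP.

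The Chimera library stood closer to second-batch MyoD in Mef2a than in Mef2d. Mef2a stood at 300.2 CPM in Chimera and 338 CPM in second-batch MyoD, a ratio of 0.888 (95% counting interval 0.860 to 0.916). Mef2d stood at 113 CPM in Chimera and 177 CPM in second-batch MyoD, a ratio of 0.640 (0.610 to 0.672), which lay at percentile 5.74 of the 13412 genes with at least 50 counts. Mef2c stood at 5.38 CPM in Chimera and 4.98 CPM in second-batch MyoD (ratio 1.08, 0.837 to 1.39). There is 1 library each, so the ratios have no replicate check. None of the 3 reached a 2-fold difference, where 4.76% of genes did (2.54% higher, 2.22% lower). Mef2a made up 71.7% of Mef2 counts in Chimera and 65.1% in second-batch MyoD. The Chimera library held 22.1 CPM of Myod1 and 165 CPM of Myf5, whereas second-batch MyoD held 324 and 14.7 CPM. Across the tables, with mitochondrial genes left out of the totals, Chimera was 4.31 times 1x GFP in Mef2a and 1.29 times in Mef2d, and second-batch MyoD was 1.41 times 1x MyoD in Mef2a and 1.21 times in Mef2d. Set against 1x MyoD of the first table, Chimera was at 1.25 times its Mef2a and 0.771 times its Mef2d, so the direction for Mef2a turned with the MyoD library used. The tables were made separately, so these values across them are descriptive.

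Among genes that hold Mef2 proteins in check, Hdac4 was higher and Hdac7 lower with MyoD. Of 9 listed corepressors 8 passed the filter, also in the GFP libraries alone, and 3 rose and 2 fell, beside 21.4% higher and 20.9% lower over all genes (median log2 fold change -0.09, against -0.03 for all genes tested). Hdac4, a class IIa deacetylase that binds Mef2, stood at 31.5 and 30.3 CPM in 1x and 2x MyoD, 26.4 and 27.2 CPM in 1x and 2x Myf5 and 19.4 to 21.1 CPM in the 5 GFP libraries. It was higher than GFP with MyoD (0.66 ± 0.06, adjusted p 0.000179, edgeR) and with Myf5 (0.44 ± 0.06, adjusted p 0.00825). Its relative Hdac7 went the other way, with 74.1 and 55.9 CPM in 1x and 2x MyoD, 82.9 and 79.8 CPM in 1x and 2x Myf5 and 103 to 166 CPM with GFP, of which 1x GFP was the lowest. Hdac7 was lower with MyoD (-1.12 ± 0.17, adjusted p 0.00157, edgeR) and with Myf5 (-0.81 ± 0.17, adjusted p 0.0298). Twist1, a bHLH repressor of myogenesis, was lower with MyoD (-0.63) and Ncor1 was higher (0.24). All 5 calls with MyoD held against 1x GFP alone, with Hdac7 at -0.65, and neither call with Myf5 did. Leaving out single libraries changed the number of corepressors called lower with Myf5 in 7 of 9 runs. The number called higher with Myf5 changed in 2 of 9 runs.

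With MyoD the median log2 fold change was 0.14 for coactivators and 0.03 for kinases, against -0.03 for all genes tested. Of 9 listed coactivators 8 passed the filter, and 4 rose and none fell with MyoD (median 0.14), beside 21.4% of all genes higher and 20.9% lower. They were led by Crebbp, an acetyltransferase (0.31 ± 0.07), Ash2l, a subunit of histone H3K4 methyltransferase complexes (0.25 ± 0.06), and Maml1 (0.31 ± 0.08). Against 1x GFP alone, where 15.1% of all genes were higher, 4 rose as well, but Ash2l and Maml1 were replaced by Jmjd1c and Kat2b. Without 2x MyoD none of the 8 was called. With Myf5 none was called (median 0.01). Of 16 kinase and calcineurin genes, all of which passed the filter, 3 rose and 4 fell with MyoD (median 0.03), shares near the 21.4% and 20.9% of all genes. Camk2g, a calcium-dependent kinase, was higher with MyoD (0.51 ± 0.09, adjusted p 0.00246, edgeR) and with Myf5 (0.49 ± 0.09, adjusted p 0.0181). The protein kinase D genes Prkd1 and Prkd2, whose products phosphorylate class IIa deacetylases, were lower with MyoD (-0.42 ± 0.08 and -0.73 ± 0.14). Mapk14, the p38 alpha kinase, was at 0.15 with MyoD and not called, and at 0.30 with Myf5, called. Set against 1x GFP alone, Camk2g was at 0.31 with MyoD, called, and at 0.30 with Myf5 (adjusted p 0.150, edgeR), and Mapk14 was at 0.20 with Myf5 (adjusted p 0.176). Neither of these 2 calls with Myf5 was thus made there, nor were they without either Myf5 library or without the GFP library at an MOI of 15 or 30. Leaving out single libraries moved the count of kinases higher with MyoD between 1 and 6 and lower between 2 and 5.

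Srf, the MADS-box relative of the Mef2 genes, was higher with both factors than with GFP. It stood at 91.8 and 108 CPM in 1x and 2x MyoD, 78.2 and 82.4 CPM in 1x and 2x Myf5, 74.9 CPM in untransduced cells, 66.4 CPM in 1x GFP and 44.7 to 52.6 CPM along the MOI series. MyoD over GFP gave 0.99 ± 0.15 (adjusted p 0.00135, edgeR) and 0.60 against 1x GFP alone (adjusted p 0.00999). Myf5 gave 0.65 ± 0.15 (adjusted p 0.0405, edgeR) against all GFP libraries and 0.26, not called, against 1x GFP alone. This call with Myf5 was also lost without either Myf5 library or without any of the 4 MOI libraries. Its cofactor Mrtfb was called with MyoD (0.23 ± 0.07) but not against 1x GFP alone (0.13, adjusted p 0.252, edgeR), Mrtfa was at 0.25 and not called, and Myocd did not pass the filter. Of the E proteins that pair with MyoD, Tcf12 stood at 536 and 637 CPM in 1x and 2x MyoD, 413 and 440 CPM in 1x and 2x Myf5 and 381 to 424 CPM with GFP (MyoD over GFP 0.58 ± 0.08, adjusted p 0.00103, edgeR), while Tcf3 (0.07) and Tcf4 (-0.12) were not called.

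Most muscle genes listed as Mef2 targets that could be tested were higher with MyoD. Of 20 written, 14 passed the filter, and 13 of these rose and none fell. The median log2 fold change was 4.58, and it stayed at that value with Ckm at its lower bound. The MyoD libraries alone can carry a gene past the filter. In the GFP libraries alone 7 passed, of which 6 rose (median 2.52) beside 21.4% of all genes tested. Smyd1, a methyltransferase of developing muscle, stood at 23.2 and 58.9 CPM in 1x and 2x MyoD, 0.937 and 2.45 CPM in 1x and 2x Myf5 and 0.101 to 0.331 CPM with GFP. Tnnt2, a troponin T, stood at 169.8 and 593 CPM in 1x and 2x MyoD, 5.48 and 21.9 CPM in 1x and 2x Myf5 and 0.670 to 1.34 CPM with GFP. Myog, the myogenic factor that acts with Mef2 late in differentiation, was at 270.3 and 763 CPM in 1x and 2x MyoD, 5.91 and 29.4 CPM in 1x and 2x Myf5, 0.503 CPM in 1x GFP and 0 in the MOI libraries. In all 3 the MyoD values lay above the Myf5 values and these above GFP. The muscle creatine kinase Ckm, at 0 counts throughout the GFP group, stood at 6.61 and 29.7 CPM in 1x and 2x MyoD. The mean of these, 18.1 CPM, was at least 977-fold higher than GFP, taking 3 counts summed over the 5 GFP libraries as the floor. That mean is carried by 2x MyoD, so the bound for 1x MyoD alone is smaller. With Myf5, 4 of the 14 rose (Myog, Tnnt2, Hrc and Smyd1; median 1.09), beside 3.81% of all genes, and none was called against 1x GFP alone. Without single libraries 0 (without 2x Myf5) to 8 (without either MyoD library) rose with Myf5. Between the factors 11 of 14 were higher with MyoD than with Myf5 (median 3.31), beside 4.21% of all genes. The counts for Myf5 over GFP and for MyoD over Myf5 run over all 14, of which 7 passed in the GFP libraries alone. The others can have passed through the MyoD libraries, where they are high, so these counts are no fair match for the shares of all genes.

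The listed targets with a consensus match in their window differed in direction. Pgam2, a muscle glycolytic enzyme, stood at 8.09 and 18.9 CPM in 1x and 2x MyoD and 2.30 to 3.09 CPM with GFP (2.39 ± 0.28, adjusted p 0.00042, edgeR). Srpk3, a muscle kinase of SR proteins, stood at 1.66 and 4.49 CPM in 1x and 2x MyoD and 0 to 0.152 CPM with GFP, and rose (5.16 ± 0.61, adjusted p 0.000443, edgeR). Xirp2 had no count in either MyoD library. Jun, a subunit of AP-1, stood at 125 and 91.8 CPM in 1x and 2x MyoD, 171 CPM in 1x GFP and 80.6 to 88.7 CPM along the MOI series. Jun was not called against all GFP libraries (0.11, adjusted p 0.790, edgeR), but fell against 1x GFP alone (-0.65 ± 0.15, adjusted p 0.0163, edgeR). Klf2, a zinc-finger factor, was at -0.46 ± 0.16 (adjusted p 0.0453, edgeR) against all GFP libraries and at -0.60 (adjusted p 0.0586) against 1x GFP alone.

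Signal-response genes listed as targets were mostly lower with MyoD. Of 8 listed 6 passed the filter, and 5 fell and none rose with MyoD (median -0.75), beside 20.9% of all genes lower and 21.4% higher. Hdac9, also listed as a corepressor, did not pass the filter and went the other way. It stood at 0.509 and 1.68 CPM in 1x and 2x MyoD and 0.0499 to 0.344 CPM with GFP. Bdnf, a neurotrophin, stood at 23.7 and 15.8 CPM in 1x and 2x MyoD, 30.7 and 28.7 CPM in 1x and 2x Myf5 and 32.9 to 38.2 CPM with GFP (MyoD over GFP -0.78 ± 0.14, adjusted p 0.00301, edgeR). Klf4, a zinc-finger factor, was at -0.85 ± 0.18 (adjusted p 0.00531, edgeR) and the nuclear receptor Nr4a1 at -0.72 ± 0.17 (adjusted p 0.011, edgeR). Against 1x GFP alone, where 15.4% of all genes were lower, 3 fell, namely Bdnf, Klf4 and Jun, while Nr4a1 was at -0.38, Meg3 at -0.13 and Klf2 at -0.60, none of them called. Without 2x MyoD 1 of the 6 fell, and without any other single library 4 or 5 did. With Myf5 none was called (median -0.17).

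**Figure D4:**
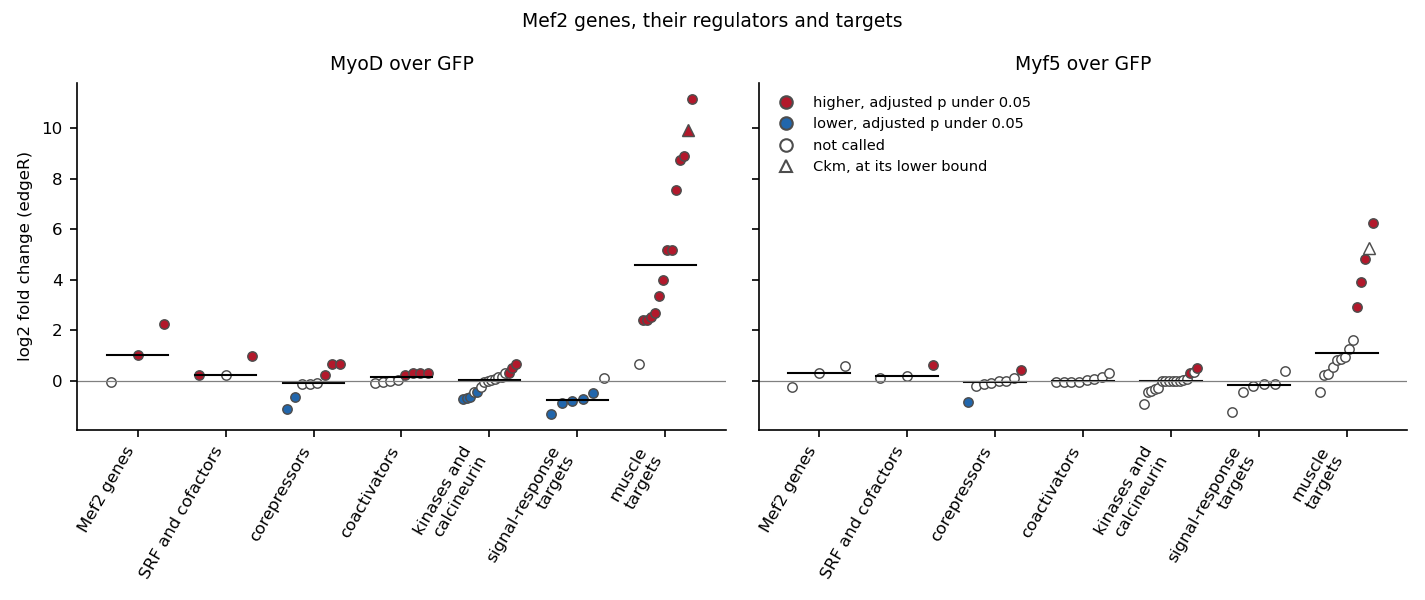
Log2 fold changes (vertical axis) of MyoD over GFP (left) and Myf5 over GFP (right) for genes that passed the filter, 1 point per gene, grouped by list, with the list median as a bar and Ckm as a triangle at its lower bound. With MyoD the muscle targets spread upward around a median of 4.58 while the medians of the other lists lie between -0.75 and 1.05, and with Myf5 the muscle-target median is 1.09.

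In the second table most muscle targets were lower in Chimera than in second-batch MyoD. Of 15 muscle targets with at least 50 counts, 9 were at least 2-fold lower in Chimera than in second-batch MyoD and none higher, beside 2.22% lower and 2.54% higher over all genes (median log2 ratio -1.07, against -0.02 for all 13412 genes). Tnnt2 stood at 245 CPM in Chimera and 782 CPM in second-batch MyoD, and Myog at 300.3 CPM in Chimera and 705 CPM in second-batch MyoD. Ckm stood at 12.1 CPM in Chimera and 32.0 CPM in second-batch MyoD. The direction turned against 1x MyoD of the first table, where 11 of the 15 were higher and 4 lower in Chimera (median log2 ratio 0.49 with mitochondrial genes left out of the totals). Tnnt2 was at 169.8 CPM, Smyd1 at 23.2 CPM and Ckm at 6.61 CPM in 1x MyoD, below their levels in Chimera (48.8 CPM for Smyd1). The 10 muscle markers summed to 848 CPM in Chimera, 1746 CPM in second-batch MyoD and 913 CPM in 1x MyoD, and the 9 fibroblast markers to 19367, 14687 and 14907 CPM in the same order. Their part in these ratios was not tested. Myom1 (-0.02) and Mb (0.37) lay above the Mef2a log2 ratio of -0.17, and the other targets lay below it. Of 9 corepressors, 8 coactivators and 16 kinase and calcineurin genes, 1 reached a 2-fold difference, the p38 gamma kinase gene Mapk12 (-1.29).

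**Figure D5:**
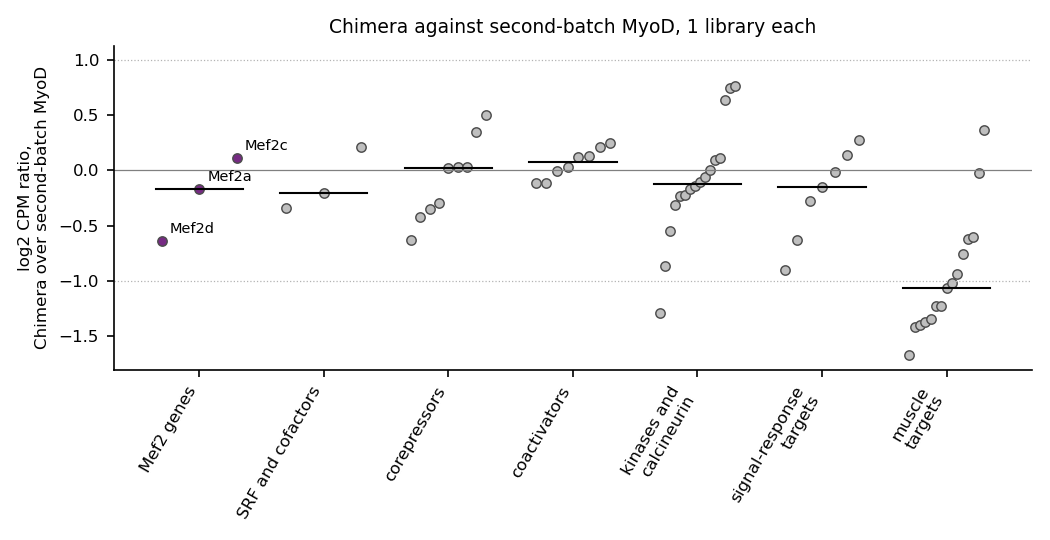
Log2 ratio of CPM in Chimera over second-batch MyoD (vertical axis) for genes with at least 50 counts, 1 point per gene by list, with list medians as bars and dotted lines at a 2-fold difference. Mef2a (-0.17) and Mef2c (0.11) lie near 0 and Mef2d at -0.64, whereas the median muscle target lies at -1.07.

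The genes whose profiles over the 10 libraries of the first table were most like those of the 2 called members were taken by the root mean square difference of centred log2 CPM. For Mef2a these were Svbp, Tmod1, Hip1, Rb1 and Clcn5, with differences of 0.142 to 0.159. Tmod1, which caps actin filaments, averaged 47.7 CPM with MyoD, 19.7 CPM with Myf5 and 13.3 CPM with GFP, and Rb1, the retinoblastoma cell-cycle regulator, 204, 86.2 and 48.2 CPM in the same order. For Mef2d they were Pacs2, Pepd, Copg2, Fxr1 and Col4a2, with differences of 0.063 to 0.075. Fxr1, an RNA-binding protein of muscle, averaged 213 CPM with MyoD, 141 CPM with Myf5 and 109.8 CPM with GFP. Mef2a and Mef2d themselves differed by 0.46. The Mef2 genes were left out of the search, so neither could be listed for the other. This measure also takes in the size of the changes. The SD of log2 CPM over the 10 libraries was 0.914 for Mef2a and 0.436 for Mef2d.

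Genes next to the members in the RefSeq table are given with their levels. Next to Mef2a, Lysmd4 stood at 8.77 and 7.76 CPM and Lrrc28 at 20.9 and 20.3 CPM in 1x and 2x MyoD, against 8.92 to 10.5 CPM and 19.0 to 23.2 CPM with GFP. Next to Mef2d, Iqgap3 stood at 33.1 and 36.1 CPM in 1x and 2x MyoD, 30.4 and 32.7 CPM in 1x and 2x Myf5, 29.2 CPM in 1x GFP, 17.4 to 21.6 CPM along the MOI series and 59.1 CPM in untransduced cells. The MyoD and Myf5 libraries thus lay above every GFP library for Iqgap3 as for Mef2d, and the untransduced library was the highest for Iqgap3. Next to Mef2b, Tmem161a stood at 46.7 and 51.7 CPM in 1x and 2x MyoD and 41.1 to 44.3 CPM with GFP. On 1 side of Mef2c, Cetn3 stood at 44.9 and 43.9 CPM in 1x and 2x MyoD and 49.2 to 53.8 CPM with GFP. On the other side, Tmem161b stood at 6.64 and 9.24 CPM in 1x and 2x MyoD, 5.39 CPM in 1x GFP and 7.502 to 10.03 CPM along the MOI series, so it was also lowest in 1x GFP among the GFP libraries. In the same table Gm52043 and Gm52044 overlap Mef2c and 1700113A16Rik overlaps Mef2d. Whether counting used strand is not stated, so reads of such overlapping genes may be mixed with those of the members.

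Markers of other cell types were at low levels. Summed CPM of 6 endothelial markers was 0.558 to 1.13 with MyoD, 0.776 to 1.10 with Myf5 and 0.939 to 1.57 with GFP, of 6 neuronal markers 0.9504 to 1.73, 0.891 to 1.77 and 0.449 to 1.62, and of 6 cardiac markers 1.53 to 2.72, 1.40 to 1.47 and 1.06 to 1.57. Of 6 macrophage markers the sum was 24.9 to 25.3 with MyoD, 26.3 to 27.3 with Myf5 and 18.6 to 27.2 with GFP. It was carried by Cd14 and Csf1r. Csf1r, at 12.7 and 13.4 CPM in 1x and 2x MyoD and 8.92 to 10.8 CPM with GFP, was called higher with MyoD (0.48 ± 0.09, adjusted p 0.00415, edgeR). Thus 1 of the 3 macrophage markers that passed the filter was called higher and none lower, beside 21.4% and 20.9% of all genes. Against 1x GFP alone 1 of the 3 was called higher and 1 lower, beside 15.1% and 15.4% of all genes. Cd14 stood at 9.68 and 6.95 CPM in 1x and 2x MyoD, 14.8 CPM in 1x GFP and 8.45 to 13.2 CPM along the MOI series. Itgam, which did not pass, stood at 0.720 and 1.61 CPM in 1x and 2x MyoD and 0 to 0.0894 CPM with GFP, while Adgre1 had no count in any library and Ptprc was at most 0.0894 CPM. Muscle markers moved with Mef2a and Mef2d across the MyoD, Myf5 and GFP groups, as the summed values above show. Chimera did not follow this for Mef2a when set against 1x MyoD of the first table. Its muscle markers summed to less (848 against 913 CPM), while its Mef2a was higher (300.2 against 250.05 CPM). Csf1r and Itgam were above every GFP library in both MyoD libraries, whereas Cd14 was below every GFP library in 2x MyoD. The part of these markers in the result was not tested.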

How the data were processed

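Poly(A) RNA was sequenced as 12 libraries on an Illumina HiSeq instrument, per the labels' protocols. CASAVA 1.8.2, TopHat2 2.0.8 and mm9 are named in the submitters' processing notes; the counting tool, its annotation and its strand setting are not given there. The deposited first table (10 libraries) holds expected counts per gene, of which 1982 to 2767 genes per library are not whole at a tolerance of 1e-06, and the deposited second table (2 libraries) holds whole counts per gene. The first table has 0% of counts on the 37 mitochondrial genes and the second 4.05% and 4.18%, so the tables were tested separately. The counts of the 4 members were whole in all 12 libraries.

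Expected counts were rounded. Symbols came from GENCODE vM21 for 32610 of 37287 IDs. Genes with at least 1 CPM in 2 libraries were fitted with edgeR 4.0.16 (R 4.3.3), using TMM scaling, the quasi-likelihood F test and Benjamini-Hochberg adjustment over all genes, called at 0.05; all groups of the first table shared 1 estimate of the spread. The dose and MOI terms had fits of their own. Chimera and second-batch MyoD, 1 library each, were compared without a test, over genes with at least 50 summed counts, a prior count of 2 and a 2-fold limit. Counting intervals are exact 95% binomial intervals and cover counting error only. Alternatives were DESeq2 1.42.0, its size factors, no filter, 1x GFP as the only control, the 6 deeper libraries alone, dose as a block and leaving out each library. The steps were tested on simulated counts. Python 3.11.15 with scipy 1.17.1 ran the permutation tests and motif searches.

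The members and gene lists were chosen with earlier results of these data known. Named by rule were the members, the 3 genes of each list with the smallest p in MyoD against GFP, the 5 genes most like each called member, and neighbours; 1 gene that this rule names is not reported here. Other genes named complete a count, carry a printed site or serve as an example, and were chosen after their values were seen.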

Additional observations from a re-analysis of the deposited data

Results flagged for a closer look

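Mef2a in the 1x GFP library, at 72.5 CPM, lay below the 4 MOI libraries of the GFP group by more of the group's range than Dixon's test allows at 95% (gap over range 0.804, limit 0.71 for 5 samples). Mef2b in the 1x GFP library, at 0.0368 CPM from 3 counts, was set apart by the same test because the 4 MOI libraries, which are shallower, had 0 counts. Chance sets apart about 1 in 20 such groups.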

How the results depend on the processing

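Among alternatives other than leaving out a library, 81 of 114 recomputed main values were rated the same. For single genes and the Mef2c share this means the same direction and call, and for numbers of genes called a number within a set factor. With DESeq2 the calls were 2143 for Myf5 over GFP, 1750 for MyoD over Myf5, 2512 for untransduced cells over GFP, 284 for dose and 486 for the MOI slope; Mef2a passed for Myf5 over GFP (0.60) and for dose (0.60), and for untransduced cells over GFP it was 0.0018. That last value was 0.0019 with DESeq2's size factors and 0.036 without the filter, which gave 16 calls for dose. With 1x GFP alone there were 163 calls for Myf5 and 683 for untransduced cells. Mef2c was then at 1.24 with MyoD, 1.04 with Myf5 and 0.77 in untransduced cells, where Mef2a was at 0.033 and Mef2d at -0.067. The 6 deeper libraries alone gave 0 calls in edgeR's test for MyoD over GFP, Myf5 over GFP and MyoD over Myf5 (4124, 1212 and 3115 genes at an unadjusted p under 0.05; DESeq2 was not run on these 6). There Mef2a was at 2.27 and Mef2d at 0.96 for MyoD over GFP, and at 1.63 and 0.74 for MyoD over Myf5, none called, and Mef2c was at 1.24 with MyoD and 1.04 with Myf5. Dose as a replicate block gave 1400 calls for MyoD over Myf5, with Mef2a and Mef2d called; the dose marks no shared culture. Against 1x MyoD of the first table, Chimera had 1825 genes past 2-fold and log2 ratios of 0.32 for Mef2a, 0.75 for Mef2c and -0.37 for Mef2d. The Mef2c share difference was -1.08 with the untransduced library added. The cause of these changes was not tested.

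Leaving out each library gave 1833 (without 2x MyoD) to 8073 calls for MyoD over GFP, 57 (without 2x Myf5) to 5063 (without 1x GFP) for Myf5 over GFP, 2 (without 1x Myf5) to 2706 (without 1x GFP) for MyoD over Myf5, 535 to 5142 for untransduced cells and 338 to 1552 for the MOI slope. The log2 fold changes ranged for MyoD over GFP from 1.74 to 2.61 for Mef2a, 0.82 to 1.25 for Mef2d and -0.48 to 0.29 for Mef2c. For Myf5 over GFP they ranged from 0.42 to 0.75 for Mef2a, 0.25 to 0.35 for Mef2d and -0.56 to 0.0063 for Mef2c. For MyoD over Myf5 they ranged from 1.14 to 2.01 for Mef2a, 0.51 to 0.94 for Mef2d and -0.24 to 0.53 for Mef2c. For untransduced cells Mef2d ranged from -0.010 to 0.038, and the Mef2a MOI slope from -0.011 to 0.0015. The Mef2c share difference ranged from -1.45 to -0.96. Depth limits Mef2b and, in the MOI libraries, Mef2c.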
